A study of Sus scrofa with 79 samples.

Results

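Genes for secreted antimicrobial and mucosal defence proteins were followed in the small intestine and blood of piglets. They were chosen by name, as DEFB1, LYZ, LTF, HAMP, REG3G, PIGR, S100A8, S100A9 and S100A12, and a probe was counted when the RefSeq annotation maps its accession to 1 of these 9 symbols. RefSeq gives the symbol DEFB1 to 2 pig genes, gene ID 396819 with the synonym PBD-1 and gene ID 404699 with the synonym PBD-2, so the set holds 10 genes with 14 probes. They are 10 of the 2393 genes that could be named, which 5461 of the 43603 probes (12.5%) represent. HAMP and LTF had 2 probes each, LYZ had 3 and every other gene had 1.

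These proteins act at the mucosal surface or in the phagocytes that reach it. Defensins, lysozyme and the C-type lectin REG3G damage bacteria directly, lactoferrin and hepcidin withhold iron, and calprotectin (S100A8 with S100A9) and S100A12 withhold metal ions and act as alarm signals of neutrophils. PIGR, the polymeric immunoglobulin receptor of the epithelium, carries dimeric IgA into the lumen. A piglet is born almost without immunoglobulin and depends on colostrum and milk until its own mucosal system matures.

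RNA was measured on 79 one-colour Agilent arrays, 12 of blood at day 8 and 67 of jejunum and ileum at days 8, 55 and 176. At day 8 RNA of 4 piglets was pooled on each array, with a different TOPIGS20 sow behind each of the 4 piglets and the treatment in common. The study's methods describe this pooling for day 8 only, and the arrays of days 55 and 176 are labelled with pool numbers of the same form. A pool is the replicate. T1 piglets were left undisturbed and handled only for blood sampling, T2 piglets were injected once with the macrolide antibiotic tulathromycin at day 4 (2.5 mg/kg), and T3 piglets had the same injection plus docking, clipping and weighing. Jejunum and ileum at day 8 had 12 and 11 arrays and each tissue at days 55 and 176 had 11, with 3 or 4 pools per treatment. Whole tissue was homogenized, so fewer cells of a type and less RNA per cell cannot be told apart.

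The labels need a caution before the results. The log2 table deposited beside the scanner files held the day 176 and blood arrays under their own names, but all other intestinal arrays under another tissue or age, with treatment and pool unchanged. In it 11 of the 12 arrays labelled jejunum day 8 were named ileum day 8, and all 11 arrays of ileum day 8, ileum day 55 and jejunum day 55 were named ileum day 55, jejunum day 55 and jejunum day 8 (lowest correlation of an array with its column 0.979). The array jejunum day 8 T2 pool 8 had no counterpart. The labels of the scanner files were used throughout. By these labels the 8 measured T cell markers were all higher at day 55 than at day 8 in both tissues (median log2 difference 2.07 in jejunum and 2.40 in ileum). The 8 markers of jejunal enterocytes were lower in ileum for 7 of 8 at day 55 and 8 of 8 at day 176, but for 0 of 8 at day 8, where the mean profiles of both tissues correlated at 0.995 across genes. The labelled tissue could therefore not be checked at day 8, and comparisons of day 55 with day 8 or of tissues at day 55 hold for the scanner labels. Treatment comparisons within 1 tissue and age compare the same arrays under both sets of labels, except for the array without a counterpart. Only the tissue and age they are named for change. Which arrays were normalized and fitted together at days 8 and 55 does depend on the choice. So do treatment results that join or contrast both tissues.

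In blood 34.8% to 44.1% of the spots of an array were well above background, in most intestinal groups 57.0% to 75.2%. The 4 arrays of ileum day 55 T3, alone on their slide, had as few as 42.4%, and jejunum day 176 T1 pool 9 had 46.9%. The intestinal arrays of different ages lay on separate slides, so age and slide cannot be told apart. Levels are log2 signals after quantile normalization, and are compared between samples for 1 gene, never between genes. A gene was called changed when limma's adjusted p was below 0.05 and the fold change above 1.5.

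**Figure D1:**
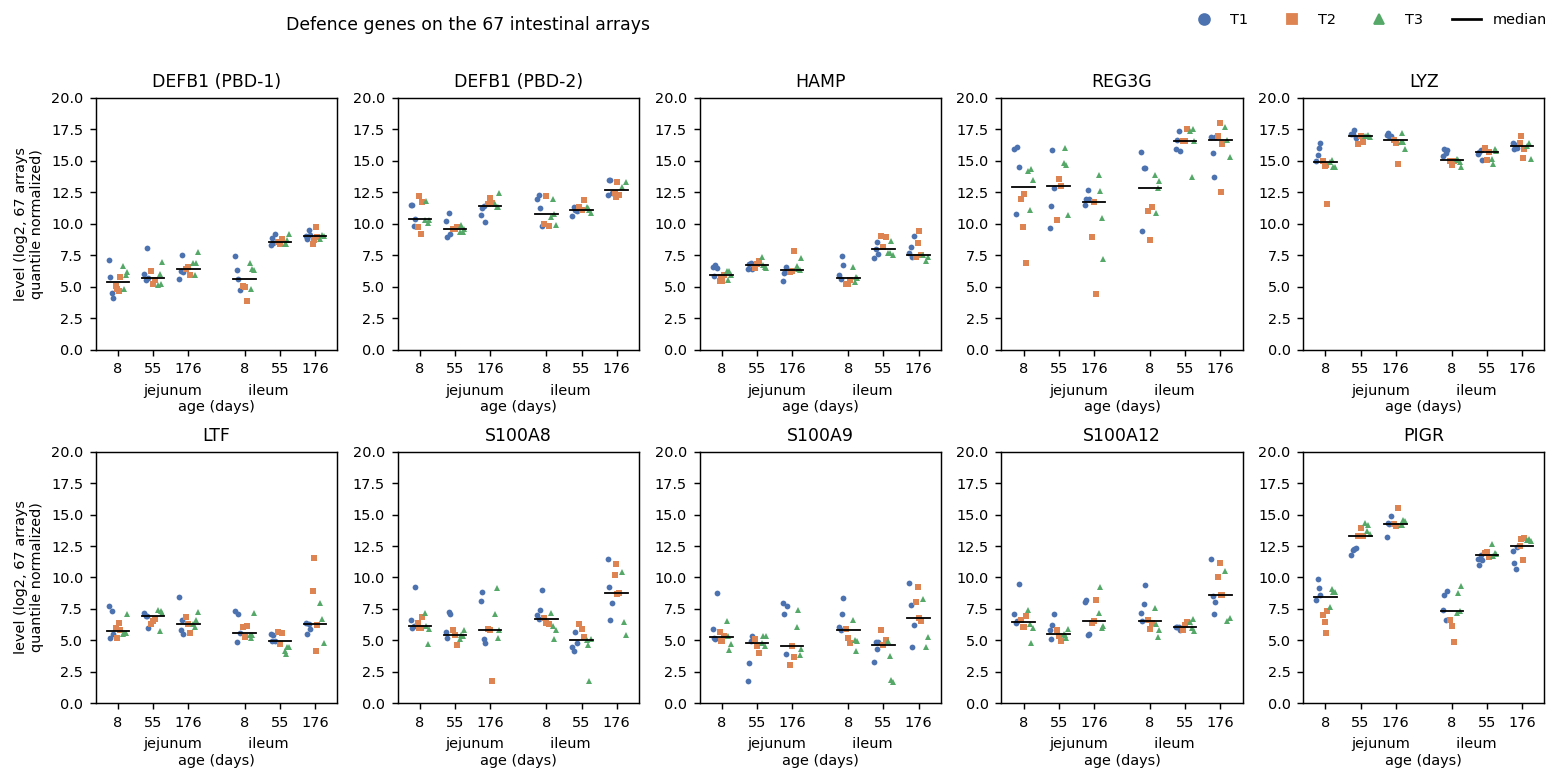
Log2 level (vertical axis) of each of the 10 defence genes on the 67 intestinal arrays, by tissue and age in days (horizontal axis). Each symbol is 1 pool with its treatment T1, T2 or T3, and the line is the median. PIGR lies at medians of 8.44 and 7.30 at day 8 and above 11 on every array at day 55, and REG3G spreads from 4.44 to 13.89 in jejunum at day 176.

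PIGR, the carrier of secretory IgA, rose most of all 10 genes between days 8 and 55. In jejunum its log2 level ran from 5.61 over a median of 8.44 to 9.85 at day 8, from 11.78 over 13.32 to 14.35 at day 55 and from 13.24 over 14.26 to 15.55 at day 176. In ileum it ran from 4.87 over 7.30 to 9.29, from 11.01 over 11.80 to 12.67 and from 10.65 over 12.50 to 13.15. No array of day 8 reached any array of the later ages. The rise to day 55 was 5.12 ± 0.27 (SE) in jejunum (adjusted p = 1.97e-22), a fold of 34.8, and 4.46 ± 0.28 in ileum (adjusted p = 9.83e-20), a fold of 21.9. Jejunum rose further to day 176, by 1.20 ± 0.28 (adjusted p = 0.000402), whereas the ileum value of 0.59 ± 0.28 did not pass (adjusted p = 0.0874). By the labels of the log2 table the same arrays gave PIGR differences of −1.42 in jejunum and −0.67 in ileum between these first ages.

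Such large changes were common in the whole intestine. Of all 31986 genes tested, 37% were called between days 8 and 55 in jejunum and 47.4% in ileum, where 4 and 6 of the 10 defence genes were called. Between days 55 and 176 the share was 37% in jejunum and 28.6% in ileum, against 4 and 5 of the 10. The shares among the defence genes are thus near those of all genes, and what follows describes which genes moved and in which direction.

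REG3G, a lectin that enterocytes and Paneth cells release against Gram-positive bacteria, differed most between the tissues. At day 8 its level ran from 6.89 over a median of 12.93 to 16.09 in jejunum and from 8.75 over 12.82 to 15.67 in ileum. At day 55 the ileum arrays lay between 13.70 and 17.53 with a median of 16.61 and those of jejunum between 9.71 and 16.03 with a median of 13.03. At day 176 the ileum median was 16.65, with a range of 12.53 to 17.98, and the jejunum median 11.71, with a range of 4.44 to 13.89. The tissues thus overlapped at all ages, but most ileum arrays lay above most jejunum arrays from day 55 on. REG3G rose in ileum by 4.33 ± 0.87 from day 8 to 55 (adjusted p = 2.57e-05) and its jejunum value was 0.33 (adjusted p = 0.773). The difference of these changes was 4.00 ± 1.21 (adjusted p = 0.00673). In jejunum it fell by 2.46 ± 0.87 on the log2 scale from day 55 to 176 (adjusted p = 0.0161), but without jejunum day 176 T2 pool 8, in which the spot was not well above background, the value was −1.81 (adjusted p = 0.0813).

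The pig defensins, cationic peptides of epithelia, behaved unlike each other with age. PBD-1 lay at medians of 5.41, 5.71 and 6.39 in jejunum at days 8, 55 and 176, with all arrays between 4.11 and 8.09. In ileum it lay between 3.91 and 7.46 at day 8, between 8.36 and 9.22 at day 55 and between 8.42 and 9.76 at day 176. The ileum rise of 3.07 ± 0.32 (adjusted p = 4.83e-12) had no counterpart in jejunum (0.50, adjusted p = 0.184), and the changes differed by 2.57 ± 0.45 (adjusted p = 6.71e-06). PBD-2 had medians of 10.36, 9.60 and 11.44 in jejunum and 10.75, 11.13 and 12.70 in ileum. It fell in jejunum by 1.06 ± 0.31 on the log2 scale to day 55 (adjusted p = 0.00394) and gave 0.27 in ileum (adjusted p = 0.48). From day 55 to 176 it rose in both tissues, by 1.77 ± 0.32 in jejunum (adjusted p = 8.1e-06) and by 1.67 ± 0.33 in ileum (adjusted p = 7.39e-05). Ileum day 176 T3 pool 3 had no PBD-2 value, because its spot was marked as an outlier, and was left out for this gene.

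HAMP encodes hepcidin, the peptide hormone that blocks iron export by ferroportin. Its jejunum medians were 5.92, 6.76 and 6.37 at days 8, 55 and 176, and its ileum medians 5.73, 8.01 and 7.52. At day 55 every ileum array except the lowest, at 7.33, lay above the highest jejunum array of 7.36. HAMP rose from day 8 to 55 by 0.71 ± 0.22 in jejunum (adjusted p = 0.00716) and by 2.28 ± 0.23 in ileum (adjusted p = 1.58e-12), a difference of 1.57 ± 0.32 (adjusted p = 8.29e-05). From day 55 to 176 its probes gave −0.72 and 0.10 in ileum, and the gene was not called.

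LYZ encodes lysozyme, which cuts the peptidoglycan of bacterial walls. In jejunum its level ran from 11.60 over a median of 14.92 to 16.44 at day 8 and from 16.37 over 16.94 to 17.42 at day 55. In ileum the medians were 15.09, 15.70 and 16.17 at the 3 ages, within a range of 14.51 to 17.00. The jejunum rise of 2.09 ± 0.25 was called (adjusted p = 3.79e-10) and the ileum value of 0.35 was not (adjusted p = 0.238), with a difference between the changes of −1.74 ± 0.35 (adjusted p = 8.22e-05). All 3 probes gave a jejunum rise, of 2.12, 2.00 and 2.15.

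Lactoferrin, the iron-binding protein of milk, secretions and neutrophil granules, is encoded by LTF. Its medians were 5.73, 6.91 and 6.34 in jejunum and 5.56, 4.94 and 6.33 in ileum at days 8, 55 and 176, and 1 of its 2 probes was well above background on only 37 of the 67 arrays. The highest value of all was 11.53, in ileum at day 176, where the lowest was 4.19. LTF rose in ileum from day 55 to 176 by 1.81 ± 0.47 (adjusted p = 0.0018) and gave −0.25 in jejunum (adjusted p = 0.679), and the difference of 2.06 ± 0.67 was called (adjusted p = 0.0135).

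The 3 S100 genes, which lie next to each other in the pig genome of the RefSeq annotation (Sscrofa11.1), had their lowest ileum medians at day 55 and their highest at day 176. S100A8 ran from 5.12 over a median of 6.72 to 9.03 at day 8, from 1.82 over 5.07 to 6.34 at day 55 and from 5.42 over 8.75 to 11.50 at day 176. S100A9 had medians of 5.83 at day 8 and 6.81 at day 176, with a range of 1.70 to 5.80 at day 55, and S100A12 had medians of 6.56, 6.07 and 8.60. At day 55 only 7, 6 and 8 of the 11 ileum arrays had S100A8, S100A9 and S100A12 well above background, so the low ends are near the limit of the array. S100A8 fell by 1.76 ± 0.58 on the log2 scale from day 8 to 55 (adjusted p = 0.00784) and S100A9 by 1.59 ± 0.55 (adjusted p = 0.0122), while S100A12 gave −0.63 (adjusted p = 0.255). Without the 4 dim arrays of ileum day 55 T3 the values were −1.39 (adjusted p = 0.069) for S100A8 and −1.04 for S100A9, and neither was called.

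From day 55 to 176 all 3 S100 genes rose in ileum. The changes were 3.71 ± 0.58 for S100A8 (adjusted p = 9.99e-07), 2.70 ± 0.55 for S100A9 (adjusted p = 9.78e-05) and 2.64 ± 0.47 for S100A12 (adjusted p = 1.16e-05). In jejunum S100A12 rose by 1.33 ± 0.47 (adjusted p = 0.0172), which became 1.13 (adjusted p = 0.0533) without T2 pool 8 of day 176, and S100A8 gave 0.34 and S100A9 0.83. The change of S100A8 differed between the tissues by 3.37 ± 0.82 (adjusted p = 0.00114). By the labels of the log2 table the ileum rises were 1.95 for S100A8 (adjusted p = 0.0035), 2.01 for S100A12, 1.11 for S100A9 (adjusted p = 0.0842) and 0.79 for LTF (adjusted p = 0.153). Of the 7 other neutrophil markers measured, 3 were called higher and 0 lower in ileum over this interval, with a median of 0.38, and the part of cell numbers in the S100 changes was not tested.

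Differences between the tissues in the change with age were called for 34.5% of all genes for day 55 against 8 and for 6 of the 10 defence genes, PBD-1, PBD-2, HAMP, REG3G, LYZ and LTF. For day 176 against 55 they were called for 30.5% of all genes and for 3 of the 10, S100A8, LTF and LYZ. The LTF call for day 55 against 8 was lost when any of 17 of the 67 arrays was left out (largest adjusted p = 0.0657). The LYZ call for day 176 against 55 was lost for any of 14 (largest adjusted p = 0.101). Without the 4 arrays of ileum day 55 T3, 3 of the 9 calls were lost. Of the first 6, PBD-1, PBD-2, HAMP and REG3G changed more upward in ileum and LYZ and LTF more upward in jejunum. By the labels of the log2 table all 6 took the opposite sign.

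**Figure D2:**
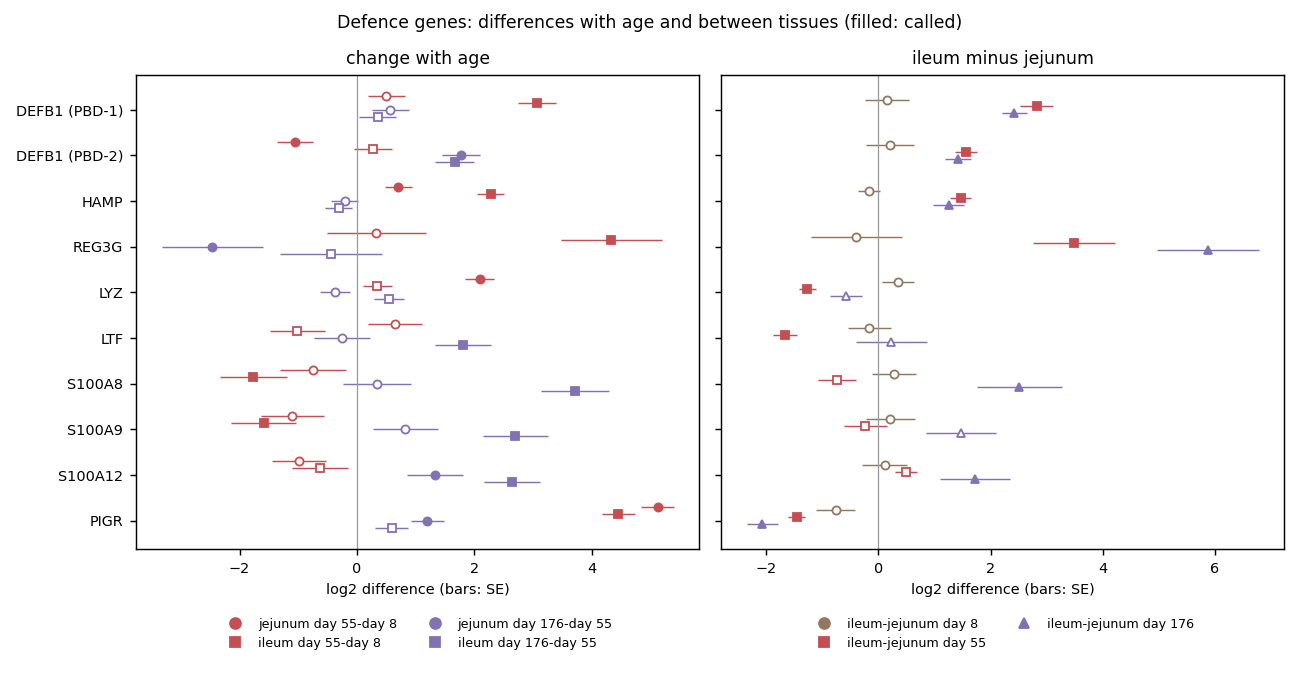
Log2 change with age in each tissue (left) and log2 difference of ileum from jejunum at each age (right) for the 10 genes, with bars of 1 SE. Filled symbols were called by limma (adjusted p below 0.05 and fold above 1.5), and the tissue difference of REG3G reaches 5.87 at day 176 whereas no gene has a filled symbol at day 8.

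The same genes were set against each other between ileum and jejunum at each age. At day 8 limma called 0 of the 10 and 3.6% of all 28314 genes, with 1 of the 10 at an unadjusted p under 0.05, PIGR with −0.76 ± 0.35 (adjusted p = 0.159). The share of all genes at that unadjusted level was 28%. At day 55 it called 7 of the 10 and 41% of all genes, and at day 176 again 7 of the 10 against 26.3%. PBD-1, PBD-2, HAMP and REG3G were higher in ileum and PIGR was higher in jejunum at both later ages.

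At day 55 no slide held both tissues, so tissue and slide cannot be told apart in its 7 calls. REG3G was higher in ileum by 3.48 ± 0.73 at day 55 (adjusted p = 0.000434) and by 5.87 ± 0.90 at day 176 (adjusted p = 5.5e-05), a fold of 58.7. PBD-1 was higher by 2.82 ± 0.29 and 2.42 ± 0.23, PBD-2 by 1.57 ± 0.19 and 1.43 ± 0.23 and HAMP by 1.47 ± 0.18 and 1.26 ± 0.27 at these ages (largest adjusted p = 0.00141). PIGR ran the other way, with −1.45 ± 0.15 at day 55 (adjusted p = 1.59e-07) and −2.06 ± 0.28 at day 176 (adjusted p = 1.24e-05). Epithelial markers were also lower in ileum, for 4 of 6 at day 55 (median −0.84) and for 5 of 6 at day 176 (median −0.89), and their part in the PIGR difference was not tested.

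LYZ and LTF were lower in ileum at day 55, by −1.26 ± 0.15 (adjusted p = 8.57e-07) and −1.66 ± 0.21 (adjusted p = 1.93e-06). At day 176 the LYZ probes disagreed, with −1.19, −0.76 and 0.22, and the gene was not called (adjusted p = 0.12), while LTF gave 0.24 (adjusted p = 0.801). S100A8 and S100A12 were called higher in ileum at day 176, by 2.51 ± 0.76 (adjusted p = 0.0154) and 1.73 ± 0.62 (adjusted p = 0.0373), and S100A9 gave 1.47 (adjusted p = 0.0769). At day 55 S100A12 had 0.50 (adjusted p = 0.0428), under the fold required, and S100A8 −0.73 (adjusted p = 0.0768). The S100A12 call was lost when any of 11 of the 22 arrays was left out (largest adjusted p = 0.0992). With the slide as a block 0 of the 7 calls of day 176 remained, and S100A8 gave −2.39 (adjusted p = 0.597). Only slide J held both tissues at that age, with T1 in ileum and T3 in jejunum. The tissue value of that model thus rests on these groups and on treatment differences within the other slides. It cannot decide about the tissue. By the labels of the log2 table the day 55 differences of REG3G, PBD-1 and HAMP were −4.06, −3.06 and −2.28, while those of day 176 did not change.

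Blood against intestine, which could be compared at day 8 only, showed some genes far higher in blood and others far lower. All 10 were called against jejunum and against ileum, where 75.6% and 74% of all 33060 genes were called. The calls of PIGR, REG3G and PBD-1 rest on blood values at background, with 0 of 12 blood arrays above it. For PBD-1, and for PIGR against ileum, no difference can therefore be claimed. For the comparison of blood with intestine the 35 arrays of day 8 were normalized together, and the size of the differences depends on this step. HAMP had medians of 10.47 in blood and 4.63 in jejunum on this scale. With blood and intestine normalized apart its medians were 7.73 and 5.95. With scaling to the 75th percentile 17 of the 20 calls were kept, and with normexp correction 18.

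**Figure D3:**
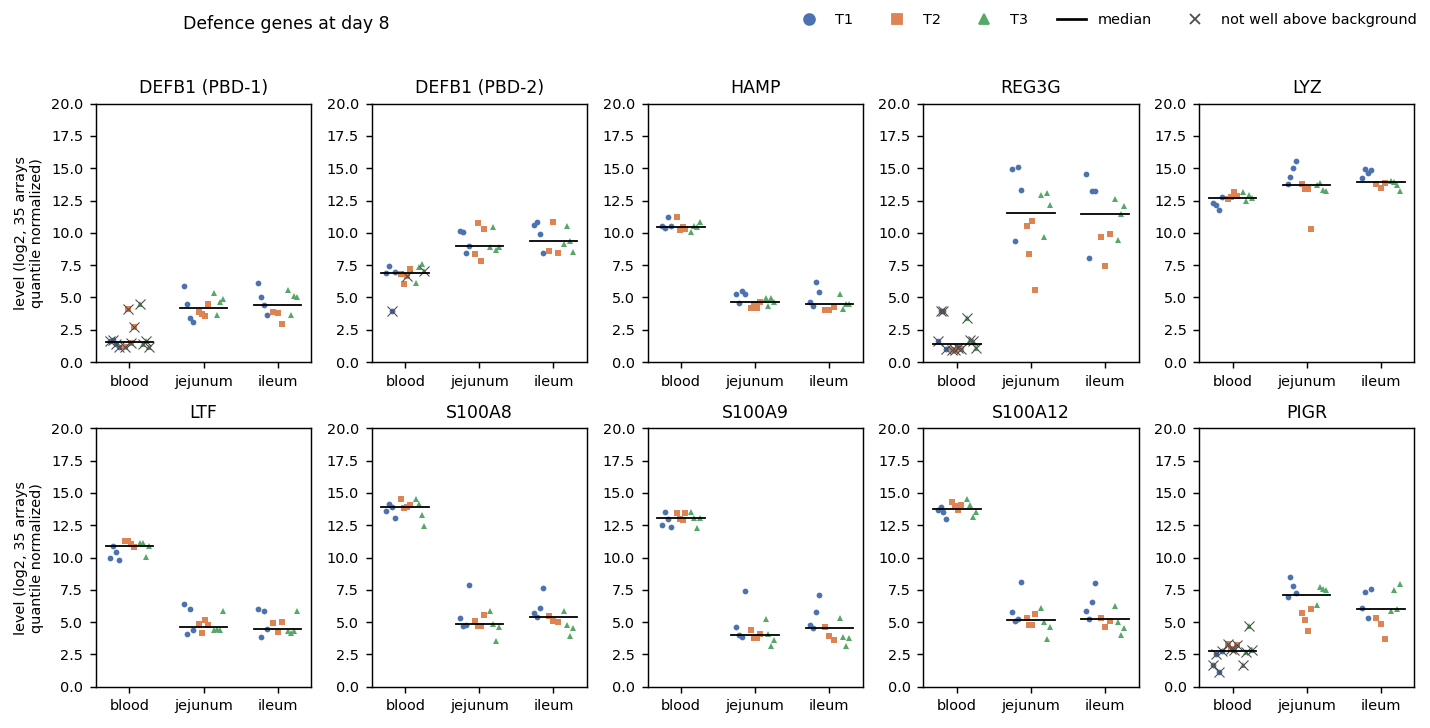
Log2 level (vertical axis) of the 10 genes on the 35 arrays of day 8, for blood, jejunum and ileum (horizontal axis), with T1, T2 and T3 as symbols and crosses for arrays on which the gene was not well above background. S100A8 lies between 12.48 and 14.57 in blood and at most at 7.92 in intestine, and PIGR, REG3G and PBD-1 are crosses on all 12 blood arrays.

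The calprotectin genes and S100A12, abundant in neutrophils and monocytes, had the largest differences in favour of blood. S100A8 ran from 12.48 over a median of 13.93 to 14.57 in blood, from 3.56 over 4.84 to 7.92 in jejunum and from 3.91 over 5.42 to 7.67 in ileum. S100A9 ran from 12.33 to 13.54 in blood against at most 7.43 in intestine, and S100A12 from 13.02 to 14.50 against at most 8.09. Blood and intestine did not overlap for any of these genes. The differences from jejunum were 8.66 ± 0.33, 8.67 ± 0.34 and 8.43 ± 0.33, and those from ileum 8.40, 8.48 and 8.32 (largest adjusted p = 1.83e-19). Of 7 other neutrophil markers 6 were higher in blood, with medians of 2.84 and 2.81.

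HAMP and LTF were also far higher in blood. HAMP ran from 10.05 over a median of 10.47 to 11.21 in blood and from 4.03 to 6.18 over both tissues, a difference of 5.79 ± 0.18 from jejunum (adjusted p = 1.13e-22) and 5.92 ± 0.19 from ileum (adjusted p = 1.38e-22). That is a fold of 55.5 and 60.7. LTF ran from 9.85 over 10.91 to 11.32 in blood and from 3.83 to 6.42 in intestine, with differences of 5.82 ± 0.29 and 5.91 ± 0.29 (adjusted p = 1.05e-17 and 1.46e-17). Both genes were well above background on all 35 arrays.

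LYZ, PBD-2 and REG3G were lower in blood, PIGR could be ranked against jejunum only, and PBD-1 could not be ranked. LYZ ran from 11.77 over a median of 12.70 to 13.20 in blood and had medians of 13.72 and 13.91 in jejunum and ileum, with differences of −0.996 ± 0.27 (adjusted p = 0.00132) and −1.37 ± 0.28 (adjusted p = 5.09e-05). PBD-2 was above background on 9 of 12 blood arrays and lower by −2.64 ± 0.41 and −2.86 ± 0.43. PIGR, REG3G and PBD-1 were above background on 0 of 12 blood arrays, so that only a limit can be given. The limit was the lowest signal of any probe well above background on a blood array, averaged over the 12 arrays (5.98). Against it REG3G was 40.8-fold higher in jejunum and 33.6-fold higher in ileum, and PIGR 1.69-fold and 1.11-fold higher. On single blood arrays the lowest such signal ran from 5.47 to 6.34, so these folds are approximate limits. The PIGR mean of 6.13 in ileum lies within that range, and no difference of PIGR from ileum is claimed. The intestinal levels of PBD-1 lay below that limit and no fold is given. The 6 epithelial markers were all lower in blood, with medians of −10.5 and −10.3, and both erythroid markers higher.

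The effect of the early treatments was tested at each age. At day 8 limma called 0 of the 10 genes in every comparison of either tissue, with 14 of the 60 tests at an unadjusted p under 0.05. Of all genes, 0.0212%, 0% and 0% were called in jejunum for T2 against T1, T3 against T1 and T3 against T2, and 7.17%, 3.41% and 3.89% had an unadjusted p under 0.05, against 4, 0 and 2 of the 10. In ileum the called shares were 0.392%, 1.18% and 0.0283%, and the shares at an unadjusted p under 0.05 were 19%, 25.1% and 9.01%, against 3, 3 and 2 of the 10. The 3 of 10 for T3 against T1 in ileum is thus near the share of all genes. For the differences of these effects between the tissues the called shares were 0.00706%, 0.0353% and 0.00706%, and limma called 0 of the 10. At an unadjusted p under 0.05 were 0 of the 10, against 7.53%, 8.73% and 3.09% of all genes.

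PIGR was the gene with the smallest adjusted p at day 8, and its T2 pools were low. In jejunum the T1 pools had levels of 8.30, 8.68, 9.24 and 9.88, the T2 pools 5.63, 6.51, 7.06 and 7.41, and the T3 pools 7.74, 8.92, 8.93 and 9.10. In ileum the T1 pools had 6.65, 7.51, 8.70 and 8.97, the T2 pools 4.85, 6.21 and 6.69, and the T3 pools 7.24, 7.37, 8.85 and 9.33. The T2 pools did not overlap with T1 or T3 in jejunum, and in ileum 1 T2 pool lay just above the lowest of T1. T2 against T1 gave −2.37 ± 0.58 in jejunum (adjusted p = 0.15) and −2.04 ± 0.63 in ileum (adjusted p = 0.114), and T3 against T2 gave 2.02 and 2.28 (adjusted p = 0.981 and 0.164). With 1 treatment effect for both tissues, as in a 2-way model, PIGR was called for T2 against T1 with −2.21 ± 0.41 (adjusted p = 0.0221) and for T3 against T2 with 2.15 ± 0.41 (adjusted p = 0.0446). That model takes both tissues of a pool as independent, although they come from the same piglets. With the pool as a random block, added after seeing the data, T2 against T1 gave −2.19 ± 0.43 (adjusted p = 0.0393) and T3 against T2 gave 2.14 ± 0.43, no longer called (adjusted p = 0.074). The block used 1 correlation for all genes, 0.122, below the 0.525 of PIGR within treatments. With the slide added to the model without a pool block the values were −2.04 (adjusted p = 0.114) and 2.02 (adjusted p = 0.981). The ileum T1 and T2 pools were on the same slide, and so were the jejunum T2 and T3 pools. The slide model therefore returns the ileum value of T2 against T1 and the jejunum value of T3 against T2 given above. It is no further test of an effect in both tissues. The 3 B cell and plasma cell markers had median T2 against T1 values of −2.75 and −2.59 in these tissues, with none called, and their part in the PIGR values was not tested.

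REG3G showed a like order at day 8 with a wide spread. In jejunum the T1 pools had 10.79, 14.49, 15.80 and 15.91, the T2 pools 6.96, 9.76, 11.98 and 12.36 and the T3 pools 11.10, 13.50, 14.18 and 14.30. T2 against T1 gave −3.98 ± 1.37 in jejunum (adjusted p = 0.388) and −3.05 ± 1.48 in ileum (adjusted p = 0.267). T1 and T2 overlapped in both tissues through T1 pool 10, the lowest of T1. LYZ gave −1.66 in jejunum (adjusted p = 0.25), where T2 pool 8 had 11.62 and the other T2 pools 14.58 to 14.88. HAMP gave −0.83 and −1.16 for T2 against T1 (adjusted p = 0.561 and 0.121), and S100A8, S100A9 and S100A12 gave −1.49, −1.73 and −1.53 for T3 against T1 in ileum (adjusted p = 0.172, 0.163 and 0.174).

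In blood 8 of the 10 genes could be tested, since PBD-1 and REG3G did not pass the filter on low signals. Limma called 0 of them for T2 against T1, T3 against T1 and T3 against T2, with 2, 1 and 0 at an unadjusted p under 0.05 and shares of all genes of 0.00693%, 0.00347% and 0%. LTF ran from 7.18 to 8.29 in T1, from 8.22 to 8.76 in T2 and from 7.34 to 8.60 in T3, and T2 against T1 gave 0.90 ± 0.32 (adjusted p = 0.316). LYZ ran from 9.22 to 10.35 in T1, from 10.20 to 10.87 in T2 and from 9.99 to 10.88 in T3, with 0.71 ± 0.27 for T2 against T1 (adjusted p = 0.36). The S100 genes had no unadjusted p under 0.05 in blood.

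At days 55 and 176, long after the injection, 1 of 40 tests of the treatments was called, that of PIGR in jejunum at day 55. The T1 pools there had levels of 11.91, 12.30, 12.44 and 12.46, the T2 pools 13.48, 13.49 and 14.12 and the T3 pools 13.63, 13.85, 14.33 and 14.52. Every T2 and T3 pool lay above every T1 pool, and T2 and T3 overlapped. The F test gave an adjusted p of 0.000211. It called 10.2% of all 30300 genes, so 1 of the 10 defence genes is near the share of all genes. T2 exceeded T1 by 1.42 ± 0.27 (adjusted p = 0.00456) and T3 exceeded T1 by 1.81 ± 0.25 (adjusted p = 8.28e-05), while T3 against T2 gave 0.39 ± 0.27 (adjusted p = 0.637). The call remained when any of the 22 arrays was left out (largest adjusted p = 0.00145). T1 and T2 shared a slide and T3 lay on another, so the difference of T3 from T1 and the slide cannot be told apart. Called in the same test were 5 of 8 T cell markers, 2 of 6 epithelial and 2 of 4 smooth muscle markers. So were 1 of 7 neutrophil and 1 of 3 B cell and plasma cell markers. The value of this test for a gene is the largest of its 3 pairwise changes, and the pair can differ between genes. Its sign therefore gives no common direction over a list. The part of these cells in the PIGR change was not tested.

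**Figure D4:**
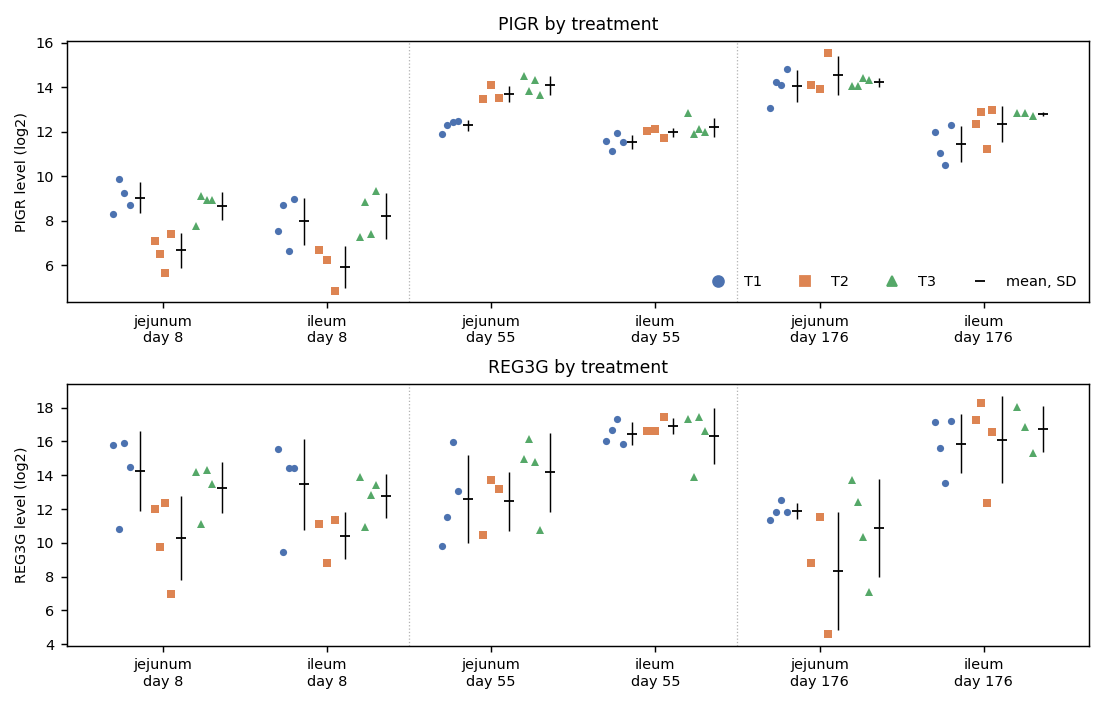
Log2 level (vertical axis) of PIGR and REG3G in the pools of T1, T2 and T3 for each tissue and age (horizontal axis), with the mean and SD of each group. The PIGR pools of T2 lie low at day 8 and above T1 in jejunum at day 55, where the T1 mean is 12.28 and the T2 and T3 means are 13.70 and 14.08.

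In ileum at day 55 limma's F test called 0 of the 10 genes, with 3 at an unadjusted p under 0.05, near the 26.9% of all genes at that level, and 12.7% of all genes called. PIGR had means of 11.54, 11.96 and 12.20 in T1, T2 and T3 (adjusted p = 0.174). HAMP had T2 pools at 8.25, 9.03 and 9.16 against T1 pools between 7.36 and 8.61, and its adjusted p of 0.106 became 0.0481 or 0.0479 without T1 pool 11 or T3 pool 3. S100A8 and S100A9 were well above background on 0 of the 4 T3 arrays, those with the fewest bright spots.

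At day 176 limma called 0 of the 10 genes in jejunum, with 0 at an unadjusted p under 0.05, and 0 of the 10 in ileum, with 1. Of all 28964 genes, 1.24% and 0.0104% were called, and 19.1% and 7.16% had an unadjusted p under 0.05. In ileum PIGR gave 1.35 ± 0.49 for T3 against T1 (adjusted p = 0.378). In jejunum the REG3G pools of T2 had 4.61, 8.81 and 11.55 against T1 pools between 11.37 and 12.56, and the value of −3.57 ± 1.60 did not pass (adjusted p = 0.18). The lowest pool, pool 8, was not well above background, and without it the value was −1.71 ± 1.62 (adjusted p = 0.768). The lowest of these pools was also the one in which LYZ was lowest and PIGR highest, at 14.85 and 15.55.

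The jejunum and ileum of the same pool were alike at day 8 in all 10 genes, a relation looked for after the values were seen. Over 11 pools the Pearson correlation of jejunum with ileum was 0.973 for LTF and 0.967 for REG3G (adjusted permutation p = 0.00015 for each, from the smallest unadjusted p that the permutations can give), with Spearman values of 0.845 and 0.945. The other genes ran from 0.799 for PIGR to 0.928 for S100A12, all with an adjusted permutation p of 0.00791 or less over 30 relations. PIGR was the exception in rank, with a Spearman value of 0.545 (adjusted permutation p = 0.202). Without the 2 pools farthest from the median, the correlations ran from 0.516 for PIGR to 0.958 for LTF. Within treatments they ran from 0.525 to 0.976 with a median of 0.88. Over all 28235 genes the median was 0.186 and the upper quartile 0.455, against a median of 0.876 over the 10.

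At day 55 a positive relation passed for PIGR, with 0.788 and a Spearman value of 0.809 (adjusted permutation p = 0.005), which was 0.582 within treatments. S100A12 ran the other way, with −0.611 (adjusted permutation p = 0.109) and a Spearman value of −0.727 that passed (adjusted permutation p = 0.0436). The other genes lay between −0.194 for PBD-2 and 0.213 for S100A8. At day 176 no gene passed, over 10 pools, with a range of −0.223 to 0.551 and a median of 0.0169 over all genes. Within treatments the correlations at day 176 ran from −0.0445 for HAMP to 0.823 for S100A9, with a median of 0.592 over the 10. Likeness within treatments was not tested. The typical distance between the tissues of a pool was small at day 8, with a median absolute log2 difference of 0.20 for LTF, 0.15 for S100A12 and 0.90 for REG3G, and large later, with 6.17 for REG3G at day 176. As the labels of both tissues at day 8 differ between the scanner files and the log2 table, what these arrays share besides the pool was not tested.

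**Figure D5:**
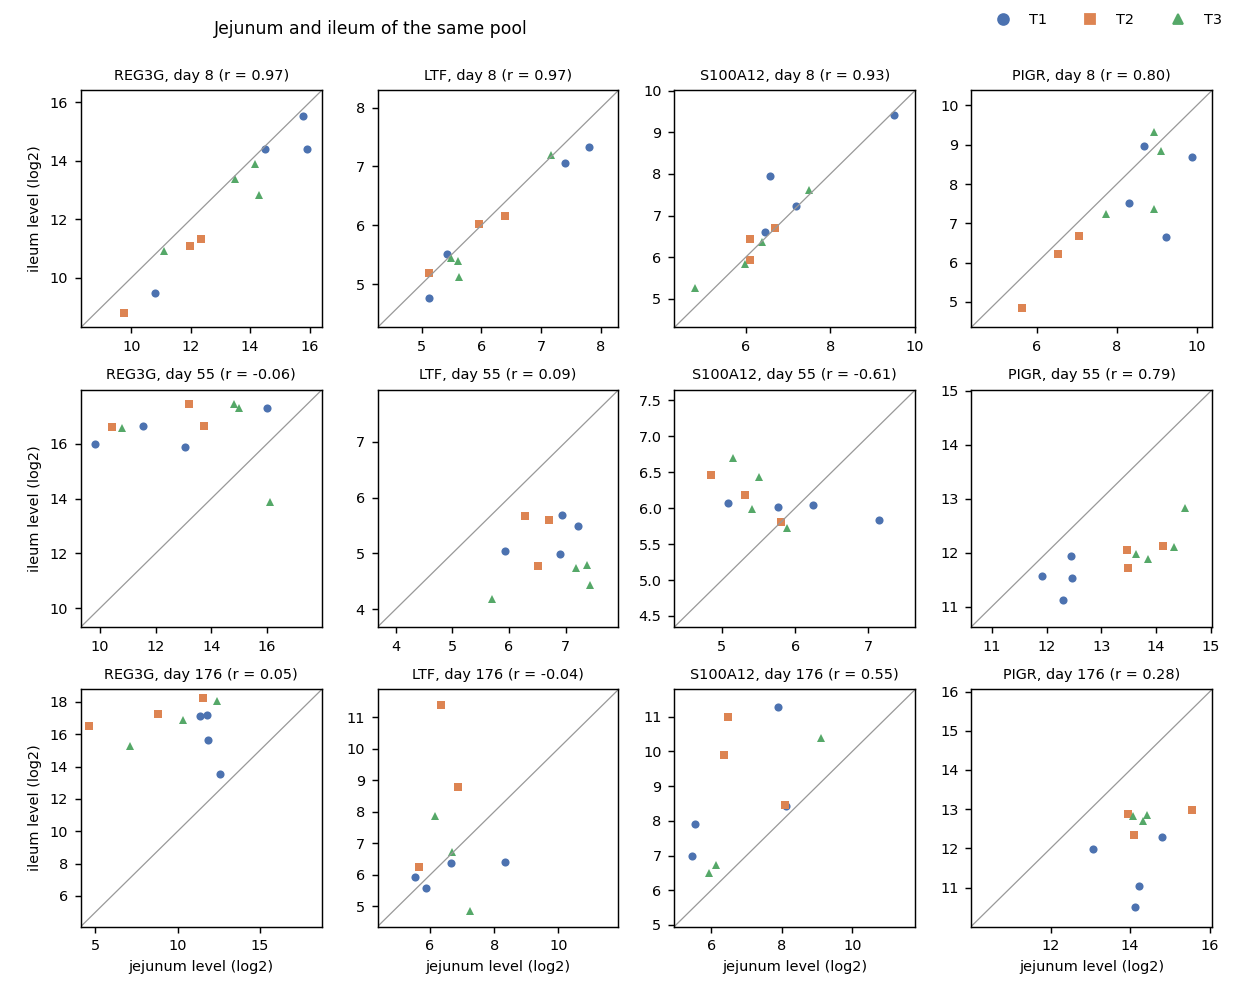
Log2 level in ileum (vertical axis) against jejunum (horizontal axis) of the same pool for REG3G, LTF, S100A12 and PIGR at days 8, 55 and 176, with the line of equal levels and the Pearson correlation in each title. At day 8 the pools follow the line, with 0.967 for REG3G, and at day 176 REG3G lies far above it, with a correlation of 0.0527.

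Pools 1, 5 and 9, and likewise each further set of 3, came from the same 4 sows, so the spread at day 8 could be read by sow set. For REG3G the set of pools 2, 6 and 10 was the lowest in both tissues, with a mean of 10.5 in jejunum, where the next had 11.6, and of 9.78 in ileum, where the next had 12.9. For PBD-2 that set was the highest in both, with 11.8 in jejunum, where the next had 10.8, and 12.3 in ileum, where the next had 10.9. With treatment in the model limma called 0 of the 10 genes for the sow sets in either tissue. Of all genes, 0 of 27405 were called in jejunum and 0 of 27551 in ileum. At an unadjusted p under 0.05 were 2 of the 10 in jejunum (REG3G and PBD-2) and 3 in ileum (these and PIGR). The share of all genes at that level was not counted, so no excess among the 10 can be read from this. The adjusted p of REG3G was 0.501 in jejunum and 0.56 in ileum.

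Other genes of the same defence systems were taken from fixed lists of defensins and cathelicidins, neutrophil granule proteins, epithelial, goblet and Paneth cell proteins, acute phase proteins, iron handling, S100 proteins with their partners, and secretory IgA. Between days 8 and 55, 22 of 82 rose and 18 fell in jejunum, where 37% of all genes were called, and 31 rose and 25 fell in ileum, where 47.4% were. Of the 11 secretory IgA genes, 10 rose and 0 fell in ileum, among them CD79A of the B cell receptor with 5.87, and 5 rose and 1 fell in jejunum, led by CCR10 with 4.20, the homing receptor of IgA plasma cells. The protease inhibitor PI3 rose by 4.68 in jejunum. The acute phase genes ITIH4 and HPX, made chiefly by the liver, had the largest falls in both tissues, by 7.63 and 5.08 on the log2 scale in jejunum and by 7.85 and 5.37 in ileum.

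Between days 55 and 176, 27 of the 82 listed genes fell and 7 rose in jejunum, where 37% of all genes were called, with 9 of 12 iron genes among the falls. In ileum 10 rose and 10 fell, against 28.6% of all genes called, among them the cathelicidin PMAP-23 with 1.49 and the transferrin receptor TFRC with 1.40. LBP, which binds bacterial endotoxin, fell in both tissues, with log2 changes of −2.48 and −1.90, and the inducible nitric oxide synthase NOS2 fell by 2.72 in jejunum while the defensin DEFB129 rose by 1.82. Ileum exceeded jejunum in 20 of 82 genes at day 55 and in 23 of 80 at day 176, with 28 and 10 lower and with 41% and 26.3% of all genes called, and CD79A was among the higher genes at both ages, with 4.00 and 4.77. The liver-expressed peptide LEAP2 was lower in ileum by −2.43 at day 55 and the goblet cell product RETNLB by −2.40 at day 176. At day 8 AGER alone differed, by −1.12, with 1 of 81.

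Against blood, 9 of 11 neutrophil granule genes were higher in blood than in either tissue, led by ARG1 with 11.9 and 11.7, and the epithelial inhibitor WFDC2 was higher by 8.33 and 8.57. REG4, a lectin of enteroendocrine and goblet cells, was lower in blood by −13.2 and −13.4. For the treatments, 7 of 82 listed genes were called in jejunum at day 55, no larger a share than the 10.2% of all genes. Among them were NOS2 with 1.97, LOC396781 with the synonym IGHG with 2.02 and the macrophage metal transporter SLC11A1 with −0.71. Each of these values is the largest of the 3 pairwise changes of the gene, and the pair can differ between genes. In ileum at day 8 the chemokine CCL28, which draws IgA plasma cells, was lower in T3 than in T1 by −1.34 ± 0.32 (adjusted p = 0.0475). These were the treatment comparisons in which a listed gene was called.

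The named genes whose 18 group means of tissue, age and treatment ran most like a defence gene were sought for each of the 10, as a description over 67 arrays. PIGR ran with TNFSF13 (0.971) and TNFSF13B (0.97), cytokines of B cells and plasma cells, and with GZMH (0.962). PBD-1 ran with CD55, LTA and CD180 (0.979 to 0.971) and HAMP with NPM2, CD180 and CCR7 (0.95 to 0.938). REG3G ran with TLR10, PTHLH and SLA-DQB1 (0.941 to 0.94). S100A8 and S100A9 were nearest to each other (0.902), S100A12 was nearest to EGF (0.86), and LTF to TFRC (0.841). LYZ ran with GSTO1, TF and ATP5O (0.914 to 0.891) and PBD-2 with DDO, RGS4 and BECN1 (0.898 to 0.879). Among the 10 themselves PBD-1 and HAMP (0.896), PBD-2 and S100A12 (0.835) and LYZ and PIGR (0.796) were alike, and REG3G and PIGR were not (0.13).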

How the data were processed

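The spot intensities were deposited by the authors as written by Agilent Feature Extraction 10.7.3.1, background-subtracted and on a linear scale, without normalization between arrays. The authors' table of log2 values was used only to compare sample names, with 0 columns that could not be mapped to a sample. Spots marked as outliers were left out, log2 was taken, and the arrays of a fit were quantile normalized together: day 8 intestine, blood, day 55, day 176, all 67 intestinal arrays for age, and all day 8 arrays for blood against intestine. A probe entered a fit when, in some group, no array had it below that array's 20th percentile, and probes of a RefSeq gene were averaged.

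A mean per group was estimated in R 4.3.3 by limma 3.58.1 (statmod 1.5.0), with Benjamini-Hochberg adjustment over all genes of a comparison and calls at adjusted p below 0.05 and a fold above 1.5. Days 55 and 176 were tested with an F test over the treatments. Figures used Python 3.11.15 and numpy 2.4.6, and the 1e+05 permutations were run in R. The scripts were tested on simulated data. By the study's methods, jejunum, ileum and blood of 1 pool at day 8 came from the same piglets, so pool numbers pair these arrays. Deviations from the group means correlated above 0.1 in 7 of 11 pairs of jejunum with ileum, and the pool was a block in an alternative.

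Genes named were the 10 members in every comparison, of the called companion genes the 2 with the largest rise and the 2 with the largest fall in each comparison, and the 3 genes most like a member in their group means. One companion gene that this rule names is not reported here. The members, the companion and marker lists and the tests were chosen with earlier results of these data known. Alternatives were scaling to the 75th percentile, normexp correction (offset 50) of the median signal, other filters on dim probes, the brightest probe, an intensity trend, slides and pools as blocks, and leaving out each array. For 1 gene, p-values measure the spread between pools. The number of arrays limits the precision. No sequences were printed, since the reference used here holds none.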

Additional observations from a re-analysis of the deposited data

Results flagged for a closer look

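Of 149 groups of 4 pools, 7 had a pool apart from the rest by Dixon's ratio of its gap to the range of the group. Chance gives about 1 in 20, near the share found, so these pools are only described. LTF was high in T3 pool 4 at day 8 in jejunum (7.14 against 5.63 for the next, ratio 0.933) and in ileum (7.17 against 5.46, ratio 0.87), so that the same pool stood apart in both tissues. LTF was low in jejunum day 55 T3 pool 2 (5.74 against 7.15, ratio 0.845). PIGR was low in jejunum day 8 T3 pool 1 (7.67 against 8.87, ratio 0.866), PBD-2 was high in jejunum day 8 T3 pool 2 (11.85 against 10.34, ratio 0.852) and HAMP was high in ileum day 55 T3 pool 3 (8.61 against 7.71, ratio 0.842). LYZ was low in jejunum day 8 T2 pool 8 (11.60 against 14.63, ratio 0.903), the array without a counterpart in the authors' table.

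The change with age differed between ileum and jejunum by limma's test for PBD-1 (2.57), PBD-2 (1.33), HAMP (1.57), REG3G (4.00), LYZ (−1.74) and LTF (−1.66) from day 8 to 55, and for S100A8 (3.37), LTF (2.06) and LYZ (0.92) from day 55 to 176. Age and slide cannot be told apart in any of these. Of the 9 calls, 2 were lost when some single array was left out, LTF to day 55 and LYZ to day 176.

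PIGR in jejunum was lower in every T2 pool than in every T1 pool at day 8 and higher in every T2 pool than in every T1 pool at day 55. On the scale of all 67 arrays the changes were −2.37 and 1.39, a distance of 3.76, and this difference between the ages was not tested.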

How the results depend on the processing

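The 0 calls of the day 8 treatments became 2 of 30 with 1 treatment effect for both tissues and 1 with the pool as a random block in that model. The 7 tissue calls of days 8 and 176 became 0 with the slide as a fixed block, where S100A8 at day 176 had −2.39. In that block model the tissue value rests on treatment differences within slides, so it cannot decide about the tissue. Leaving out 1 array moved the treatment calls of days 55 and 176 between 1 and 2. It lost 2 of 19 age calls, 1 of 14 tissue calls and 0 of 20 blood calls, and reversed none. Of the 9 called differences between the tissues in the change with age, it lost 2 and reversed 0. By the sample names of the log2 table, an alternative chosen after seeing the data, 6 of the 19 age calls were kept with their direction. Those that turned between days 8 and 55 were PIGR in jejunum (−1.42) and ileum (−0.67), LYZ (−1.38) and PBD-2 (1.54) in jejunum, and REG3G (−0.78), HAMP (−0.12), S100A8 (0.32) and S100A9 (0.22) in ileum. In ileum against jejunum at day 55 REG3G (−4.06), PBD-1 (−3.06), HAMP (−2.28), LTF (1.00) and PBD-2 (−0.26) turned. The tissue differences of the change with age turned for LYZ (1.48), REG3G (−4.38), PBD-1 (−2.49), HAMP (−1.54), LTF (1.66) and PBD-2 (−1.21) to day 55, and for LYZ (−0.11) and LTF (−0.75) to day 176. The 19 age calls were 23 with scaling to the 75th percentile, 16 with normexp, 17 without the ileum day 55 T3 arrays and 14 from T1 pools alone, the last 2 chosen after seeing the data. With the pool as a replicate block the calls were 22 for age, 16 for tissue and 20 for blood against intestine, and no call was lost. The 2 tissue calls gained were S100A8 at day 55 (−0.73, adjusted p = 0.0211) and S100A9 at day 176 (1.62, adjusted p = 0.0032). With the sow set as a block the treatment calls stayed at 0 for day 8 and 1 for days 55 and 176. At the later ages the set was taken from the pool number alone. Same-numbered tissues correlated above 0.1 in 4 of 11 pairs at day 55 and 2 of 10 at day 176, where the study's methods do not state shared piglets. Blood spots at background limit what can be said of PBD-1, PIGR and REG3G.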
